A study of Drosophila melanogaster with 2 samples.

Results

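The regions described here were the peaks of a CG17802 chromatin immunoprecipitation (ChIP-seq) pooled peak list that lay at the promoters of long non-coding RNA genes. A peak was taken when its summit was at most 500 bp away from a transcription start site (TSS) in the annotation and the nearest TSS belonged only to genes named as long non-coding (lncRNA) or antisense (asRNA) RNAs. Of the 30000 pooled peaks, 703 met this rule, and 122 of them were among the 3535 peaks that the authors kept in a set thresholded for reproducibility between replicates. A protein-coding TSS lay within 500 bp of the summit as well at 95 of the 703, of which 30 were thresholded. The 122 thresholded peaks stood for 115 gene entries, with 7 genes carrying 2 peaks each, so those peaks share a gene.

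The samples were 2 libraries from whole Drosophila melanogaster embryos, aged 0 to 14 h and of pooled sex, from a transgenic line stably expressing CG17802 with GFP fused to its C-terminal end. Both biological replicates came from the same fly line, so they formed 1 group and gave no comparison between genotypes, stages or tissues. The labels disagree on one point, since a free-text field speaks of input controls while the fields for antibody and assay give CG17802 and transcription factor ChIP-seq. Chromatin was sheared by sonication to 200 to 800 bp and the read depth of the libraries is unknown, so the precision of each signal could not be derived.

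CG17802, also called Nicknack, is a zinc-finger protein with the zinc-finger-associated domain typical of a large insect family, and it is known as an essential protein that localises to heterochromatin. Long non-coding RNA genes are transcribed by RNA polymerase II from promoters like those of coding genes, but their transcripts hold no long reading frame. Some start back to back with a coding gene, so that both transcripts leave 1 short shared promoter in opposite directions, and others start alone, in gene deserts or antisense inside the introns of coding genes. Promoters of broadly expressed fly genes often hold the DNA replication-related element (DRE, bound by DREF), paired copies of the core word of the insulator protein BEAF-32, or Motif 1 (bound by M1BP), whereas promoters of regulated genes more often hold a TATA box or GAGA repeats.

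The sequences around the summits of 11 thresholded members are shown because the results below turn on them. They cover the highest member and 2 further divergent promoters, members without a coding neighbour from chromosome 4, from a centromere-proximal segment and from elsewhere, 3 members with a DRE, the highest microRNA host and 1 member with the word CACTGAGA. Each is the 101 bp window centred on the summit, read 5′ to 3′ on the + strand of the Release 6 (dm6) assembly from NCBI RefSeq. Capitals mark the matches to the motifs searched on both strands, which here were the DRE (TATCGATA), the BEAF-32 word CGATA (every copy, in windows that hold a pair), the TATA box word TATAAA and the word CACTGAGA. A window with no capitals held none of them, nor Motif 1, GAGA or Ohler motif 5.
lncRNA:CR43130 (3R:8820767-8820867, the highest member, at the divergent lncRNA and aqz promoter): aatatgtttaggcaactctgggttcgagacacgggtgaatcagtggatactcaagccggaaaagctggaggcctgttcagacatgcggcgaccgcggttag
lncRNA:CR44149 (2L:9568661-9568761, divergent, with the TSS of brwl on the other strand): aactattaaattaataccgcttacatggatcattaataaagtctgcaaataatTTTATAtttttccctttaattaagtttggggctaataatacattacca
lncRNA:CR45187 (3R:4402946-4403046, divergent, with the TSS of lost on the other strand): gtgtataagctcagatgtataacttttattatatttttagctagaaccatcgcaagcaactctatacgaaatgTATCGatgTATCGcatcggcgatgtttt
lncRNA:CR46450 (2L:23176142-23176242, no coding TSS nearby, in a centromere-proximal segment): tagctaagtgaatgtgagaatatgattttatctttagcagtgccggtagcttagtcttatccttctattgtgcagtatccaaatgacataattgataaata
asRNA:CR44030 (4:959779-959879, no coding TSS nearby, on chromosome 4): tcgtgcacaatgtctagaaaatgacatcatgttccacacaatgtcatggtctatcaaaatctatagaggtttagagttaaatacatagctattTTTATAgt
asRNA:CR46005 (3L:6125294-6125394, antisense summit in an exon of l(3)mbn): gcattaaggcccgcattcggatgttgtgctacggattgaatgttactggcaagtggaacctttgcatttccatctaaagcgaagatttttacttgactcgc
lncRNA:CR46475 (3L:23279191-23279291, DRE): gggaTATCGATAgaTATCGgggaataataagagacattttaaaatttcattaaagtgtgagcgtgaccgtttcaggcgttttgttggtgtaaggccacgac
lncRNA:CR46483 (3L:24975066-24975166, DRE): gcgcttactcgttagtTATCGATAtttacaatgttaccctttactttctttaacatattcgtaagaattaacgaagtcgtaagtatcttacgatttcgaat
asRNA:CR45124 (4:42485-42585, DRE): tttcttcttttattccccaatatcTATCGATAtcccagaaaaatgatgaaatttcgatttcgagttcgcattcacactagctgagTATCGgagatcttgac
lncRNA:CR31044 (3R:29214401-29214501, the microRNA host with the highest signal): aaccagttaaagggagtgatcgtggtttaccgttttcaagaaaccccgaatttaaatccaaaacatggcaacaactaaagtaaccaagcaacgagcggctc
lncRNA:CR45645 (3R:21862282-21862382, with the word CACTGAGA): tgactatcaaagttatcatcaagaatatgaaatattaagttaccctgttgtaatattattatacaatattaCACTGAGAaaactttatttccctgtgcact

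The authors' threshold was passed by 17.4% of the 703 lncRNA promoter peaks (95% Wilson interval 14.7 to 20.3), beside 11.8% of all 30000 pooled peaks. It was passed by 26.7% of the 6672 peaks whose nearest TSS belonged to a protein-coding gene, alone or tied with other genes (25.6 to 27.8). Of the 22475 peaks more than 500 bp from any TSS, 7.20% passed (6.87 to 7.54). The lncRNA promoters thus stood between coding promoters and the rest of the genome, and their interval did not overlap that of either. Genes named lncRNA and genes named asRNA passed in 102 of 587 cases (17.4%, 14.5 to 20.7) and 20 of 116 (17.2%, 11.4 to 25.1), respectively. Passing was itself a matter of signal, since the 3535 thresholded peaks were exactly those that ranked first in the pooled list by signal. The lowest of them had a signal of 109.8 and the highest lncRNA promoter peak left out had 108.6, in the authors' units, whose scale is not stated. The intervals cover counting error over peaks only, and peaks are not replicates of a condition.

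**Figure D1:**
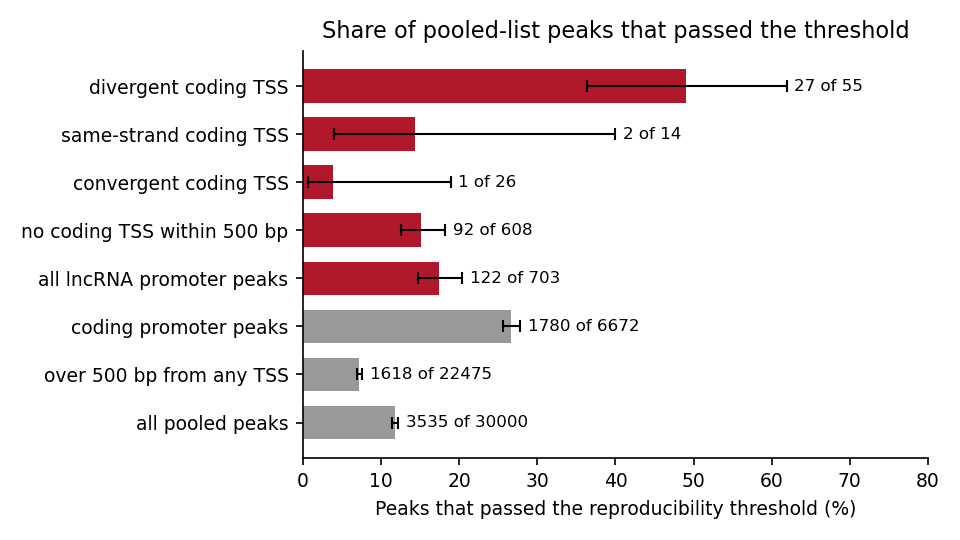
Share of pooled-list peaks, in percent on the x axis, that passed the authors' reproducibility threshold, for lncRNA promoter peaks and their orientation classes (red) and for other peaks (grey). Bars carry 95% Wilson intervals and counts. Divergent promoters stood highest at 27 of 55, and the other lncRNA promoter classes stood at 15.1% or less.

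Among the lncRNA promoter peaks, those at divergent promoters passed most often. Where the lncRNA TSS and the coding TSS faced away from each other, 27 of 55 peaks passed (49.1%, 36.4 to 61.9). Where both transcripts ran on the same strand 2 of 14 passed (14.3%, 4.01 to 39.9), and where they faced each other 1 of 26 did (3.85%, 0.682 to 18.9). Of the 608 peaks with no coding TSS within 500 bp, 92 passed (15.1%, 12.5 to 18.2). In the pooled list the interval of the divergent class lay above that of the lone promoters and of the coding promoters as a whole. The contrast was smaller in the list of replicate 1 alone, with the same number of top-ranked peaks taken, where 30.2% of divergent, 17.2% of same-strand or convergent and 18.6% of lone members passed. In the list of replicate 2 alone the shares were 41.4%, 6.82% and 14.6%, beside 49.1%, 7.5% and 15.1% in the pooled list. These orientation classes were drawn up after the data had been seen, and divergent promoters carry a coding TSS by construction, so the lncRNA's own part in these peaks cannot be told apart from the coding gene's.

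The highest lncRNA promoter peak was at lncRNA:CR43130 (FBgn0262604, 3R:8820556-8821213), which starts 88 bp from the divergent TSS of aqz. Its signal was 17833 in the pooled list (rank 4), 5505 in replicate 1 (rank 3) and 12345 in replicate 2 (rank 4), with the summit 47 bp inside the lncRNA and 135 bp from the aqz TSS. The next was lncRNA:CR44209 (FBgn0265107, 2R:7533031-7533738) at 12937 (rank 8), with 3128 in replicate 1 (rank 11) and 9865 in replicate 2 (rank 8). Its summit lies 76 bp from the TSS of Cyt-b5, which encodes the electron carrier cytochrome b5, and within 500 bp of a TSS of Drat. The lncRNA and Cyt-b5 TSSs are 9 bp apart. The peaks of CR43130 and CR44209 stood far above every other member, the third being at 3858. They were the only members among the 25 highest peaks of the pooled list, where coding promoters held 22. Members were 6 of the 100 highest, 26 of the 500 highest and 44 of the 1000 highest, and coding promoters 84, 351 and 634. For comparison, members were 122 of all 3535 thresholded peaks and coding promoters 1780.

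Below these 2, divergent members covered a wide range of signal. lncRNA:CR42646, 149 bp from CG10417, had 2698 (613.7 in replicate 1 and 2095 in replicate 2) and a second summit at 476.4 that fell in the same replicate 1 peak. lncRNA:CR46478 at CG12547 had 1273, with 361.8 and 921.6 in the replicates. asRNA:CR45928, beside the gene of the ribosome assembly factor eIF6, had 615.9, with 188.6 and 426.3. These 3 promoters kept the order of the pooled list in both replicates, while the heights of different lists are on scales of their own.

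Some of the other divergent coding partners have known roles in transcription or the cytoskeleton. They were picked for those roles after their values were seen, and the share of such roles was not counted. lncRNA:CR46075 beside jing, a zinc-finger transcription factor, had a signal of 293.0 (88.97 and 195.2 in the replicates). The peak of asRNA:CR44429 had 379.1, with its summit in an intron of gce, a juvenile hormone receptor gene, and 471 bp from a gce TSS. The signal was 188.4 at asRNA:CR44390 beside RhoGEF2, an activator of the small GTPase Rho1. The members paired with coro (actin-binding coronin), Sin3A (a corepressor) and MED4 (a Mediator subunit) lay between 162.1 and 165.7. lncRNA:CR45552 beside tmod, which caps actin filaments, had 131.2. The gap between the paired TSSs had a median of 197 bp over the 27 thresholded members (9 to 792 bp). In several, among them those of gce, Sin3A, Ama and CG10433, the summit lay in an intron of the paired coding gene. Not every pair of this class was thus 1 short shared promoter. The 28 divergent members that did not pass had a median gap of 238 bp and a median signal of 50.7, with 90.1 as their highest, well under the threshold. In 16 of the 27 the summit lay upstream of the lncRNA TSS.

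**Figure D2:**
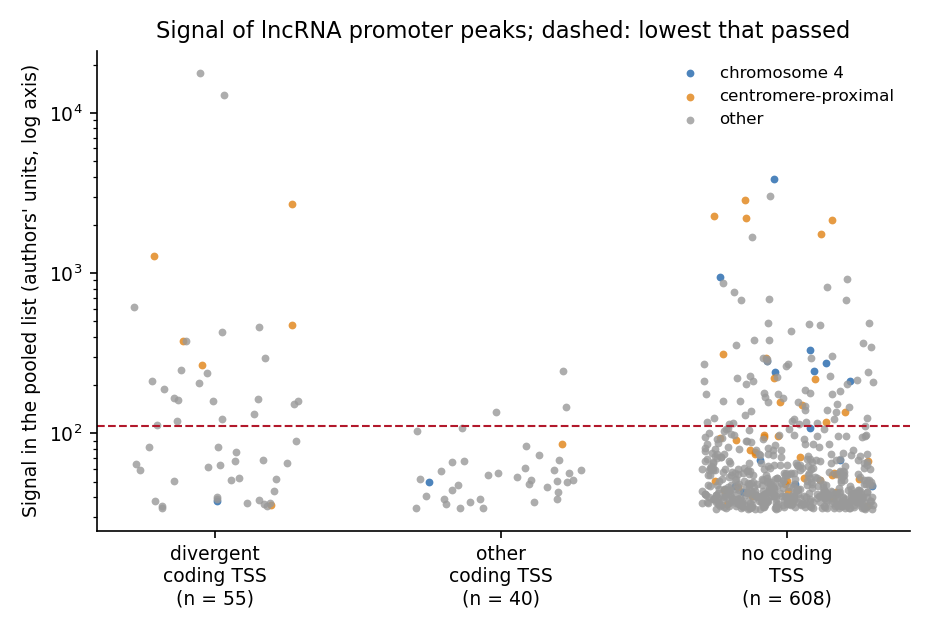
Signal of the 703 lncRNA promoter peaks in the pooled list (authors' units, log axis) by orientation class, with colours for chromosome 4, the centromere-proximal segments and the rest of the genome. The dashed line marks the lowest thresholded member, at 110.4. The 2 points above 10000 are the divergent promoters at aqz and Cyt-b5.

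Most thresholded members, 92 of 122, had no coding TSS within 500 bp, and the nearest coding TSS of these lone members was at a median of 2576.5 bp. The share with a coding TSS within 500 bp was 24.6% in the pooled list and 16.2% in the list of replicate 1 alone. Their median signal was 220.7, the same as that of all thresholded members, whose quartiles were 156.1 and 380.2 and whose range ran from 110.4 to 17833. Thresholded coding promoter peaks had a median of 208.5 and thresholded peaks away from any TSS 170.1. So lncRNA promoter peaks that passed were about as high as coding promoter peaks that passed. Over all distances up to 500 bp, a smaller share of the lncRNA promoter peaks passed. Beyond 500 bp the intervals for different distances to a coding TSS overlapped, with 15 of 98 passing at 501 to 1000 bp, 50 of 293 at 1001 to 5000 bp and 27 of 217 farther away.

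The highest lone member was asRNA:CR44030 (FBgn0264822, 4:959177-960215), with a signal of 3858 (rank 53), 708.2 in replicate 1 (rank 100) and 2907 in replicate 2 (rank 48). Its summit lay 154 bp inside the antisense RNA and 1437 bp from the TSS of 4E-T, which encodes a partner of the cap-binding protein eIF4E. asRNA:CR46005 (3L:6124921-6125550) followed at 3033 (rank 76), with 743.9 and 2301 in the replicates, and its summit lay in an exon of l(3)mbn on the other strand. lncRNA:CR45472 had 2841, with 955.5 and 1907 in the replicates, 669 bp from the TSS of Not3, a subunit of the CCR4-NOT deadenylase complex. lncRNA:CR46450 (2L:23175955-23176378) had 2268, with 763.4 and 1511. In each of these 4 the ranks in the single replicates stayed within the first 107, so the height of the pooled peak did not rest on 1 library.

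A further group of lone members sat in introns of coding genes, mostly on the opposite strand. lncRNA:CR46475 (3L:23278777-23279727), in an intron of the nicotinic acetylcholine receptor subunit nAChRalpha4, had a signal of 2206, with 691.0 in replicate 1 and 1551 in replicate 2. lncRNA:CR32385, in an intron of the G protein subunit gene Galphai, had 1677, with 489.0 and 1187. Those in introns of kcc, a potassium-chloride cotransporter, and of LpR2, a lipophorin receptor, had 918.7 (asRNA:CR44806) and 690.0 (lncRNA:CR46102). lncRNA:CR44867, in an intron of beat-Ib, a cell adhesion gene of the beaten path family, had 490.7, with 101.4 and 385.8. Of the members without a coding TSS nearby, 31 of 159 with an intronic summit passed (19.5%, 14.1 to 26.3), beside 58 of 405 between coding genes (14.3%, 11.2 to 18.1) and 3 of 44 in coding exons or UTRs (6.82%, 2.35 to 18.2). Those intervals overlapped. Antisense to the host gene 27 of 165 passed and on the same strand 7 of 37, also with overlapping intervals, but the antisense members had a median signal of 269.7 and the same-strand members 169.3.

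Lower in the list, some intronic members had hosts with known roles in signalling and chromatin, picked for those roles after their values were seen. The member in osa, a subunit of the Brahma chromatin remodeller, had a signal of 365.6 (lncRNA:CR46036), that in Dif, an NF-kappaB factor of immunity, 356.5, and that in kis, a chromodomain remodeller, 269.7 (lncRNA:CR44222). Members in Socs36E, a suppressor of JAK/STAT signalling, in the clock gene vri and in puc, the phosphatase that limits JNK signalling, lay between 175.7 and 179.1. The lowest thresholded member, at 110.4, was in an intron of the cyclin-dependent kinase gene Eip63E.

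Members near, but over 500 bp from, well-studied coding genes also passed. lncRNA:CR43242, whose summit was 572 bp from the TSS of the splicing factor gene Spf45, had 1746. lncRNA:CR44440 on chromosome 4, 1122 bp from the semaphorin receptor gene PlexB, had 945.7, with 210.9 in replicate 1 and 731.2 in replicate 2. The signal of lncRNA:CR31840, 2908 bp from hll, was 867.2, with 229.6 and 620.0 in the replicates. lncRNA:CR44531 lay 3346 bp from Tet, the gene of a dioxygenase that acts on methylated bases, with 763.2. All of these ranked among the 25 highest members. The peak of lncRNA:CR44810, 4543 bp from the C/EBP gene slbo, had 679.6. That of lncRNA:CR45668, 673 bp from the cytoplasmic actin gene Act5C, had 485.6, and that of lncRNA:CR44339, 4188 bp from the Polycomb group gene Psc, had 480.1.

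Hosts of small RNAs were among the members that passed. Of 26 member peaks at lncRNA genes that contain a microRNA or small nucleolar RNA gene, 2 were thresholded (7.69%, 2.14 to 24.1), an interval that holds the 17.4% of all members. The peak of lncRNA:CR31044 (3R:29214320-29214559), the host of mir-279 and mir-996, had a signal of 677.8 (rank 325), with 200.5 in replicate 1 and 485.6 in replicate 2, at 111 bp upstream of the TSS. mir-279 is known for repressing the formation of carbon dioxide sensing neurons in the maxillary palps. The peak of lncRNA:CR43626, the host of mir-282, had 293.1 (rank 982), with 65.8 and 225.5. Just under the threshold came the hosts of mir-184 with 106.4 (lncRNA:CR44206), of the growth-promoting bantam microRNA with 99.9 (lncRNA:CR43334) and of mir-14 with 95.7 (lncRNA:CR43651). Hosts of mir-8, mir-124 and mir-1 were lower, at 72.8, 56.8 and 36.6.

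Of the lncRNAs with a name of their own, 13 genes were nearest to 21 member peaks and 2 of them, sphinx and flam, had thresholded peaks. The peak of lncRNA:sphinx (4:974563-974892), an RNA gene linked to male courtship, had a signal of 280.8 (rank 1033), with 88.6 in replicate 1 and 186.3 in replicate 2, and its summit lay 440 bp upstream of the TSS and inside the gene fuss. lncRNA:flam, the piRNA precursor locus that silences gypsy-type transposons in the ovary, had summits 380 bp and 159 bp upstream of annotated TSSs. The first (X:21632971-21633106) had 225.7, with 82.0 and 147.3 in the replicates, and lay in an annotated transposable element. The second (X:21631567-21631896) had 148.8, at rank 4529 in replicate 1 and rank 2035 in replicate 2, so it stood lower in replicate 1. How reads from repeated sequence were placed is unknown here, and its part in these values was not tested.

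Member peaks of the other named lncRNAs did not pass. Of all member peaks at named lncRNAs 3 of 21 passed (14.3%, 4.98 to 34.6), an interval that holds the 17.4% of all members. By gene, 3 of 43 named lncRNA and asRNA genes had a thresholded summit within 500 bp of a TSS (6.98%), beside 6.21% of all such genes. These were lncRNA:flam, lncRNA:sphinx and lncRNA:enrr, the last through a summit that was not a member peak. The 3 summits at lncRNA:Hsromega, which forms nuclear speckles under heat shock, had signals of 96.1, 67.9 and 38.5. lncRNA:roX1, part of the dosage compensation complex of the male X chromosome, had 42.3 and 40.3, both with a peak in replicate 2 only. At lncRNA:bxd, a transcript of the bithorax complex, the signal was 38.7, with a peak in replicate 1 only. lncRNA:acal, a regulator of JNK signalling in dorsal closure, had 48.0 with no peak in either replicate list. The other named genes had lncRNA:TS2 (93.4 and 36.0) and lncRNA:marge (78.7) as their highest. Below them came lncRNA:Vinr (53.5 and 36.3), lncRNA:osk (52.3), lncRNA:TS16 (46.3), lncRNA:TS11 (44.9) and lncRNA:TS14 (34.5), and 2 further summits of lncRNA:sphinx had 68.0 and 48.2. All of these lay under the 109.8 of the lowest thresholded peak. The authors describe the pooled list as a whole as peaks and background.

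Nicknack is known for heterochromatin, and the members of chromosome 4 and of the centromere-proximal segments passed more often than the rest. On chromosome 4, 8 of 17 passed (47.1%, 26.2 to 69.0), in the centromere-proximal segments 18 of 48 (37.5%, 25.2 to 51.6) and elsewhere 96 of 638 (15.0%, 12.5 to 18.0). Neither of the first 2 intervals overlapped that of the rest, but they treat peaks as independent. On chromosome 4 lncRNA:CR44440 had 2 of the thresholded peaks. In the segments lncRNA:CR42646, lncRNA:CR46483 and lncRNA:CR43256 had 2 each. Coding promoters showed the same order, with 61.3%, 55.3% and 25.2% passing. The heights of the peaks that passed differed, however, because thresholded lncRNA promoter peaks had a median signal of 278.0 on chromosome 4 and 344.5 in the segments, where coding promoters had 1596 and 1726. Outside those regions the medians were 205.0 and 196.0. After CR44030 and CR44440, the next on chromosome 4 were lncRNA:CR46488 with 330.1 and asRNA:CR43425, antisense in an exon of the synaptic vesicle priming gene unc-13, with 275.2. High members in the segments included CR45472, CR42646, CR46450, CR46475, asRNA:CR46487 (2145, in an intron of CG17684) and CR43242. On the 5 large arms the share ran from 13.1% (2L, 24 of 183, 8.97 to 18.8) to 24.8% (2R, 36 of 145, 18.5 to 32.4), with overlapping intervals.

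Counted by gene, 152 of the 2448 lncRNA and asRNA genes had a thresholded summit within 500 bp of a TSS (6.21%, 5.32 to 7.24), beside 16.8% of the 13968 protein-coding genes. This count takes every gene within reach of a summit, also where another gene's TSS was nearer, which held for 37 of the 159 summits behind it. Non-coding genes that themselves start within 500 bp of a coding TSS had such a summit in 54 of 443 cases (12.2%, 9.46 to 15.6) and the others in 98 of 2005 (4.89%, 4.03 to 5.92). The share was 33.3% on chromosome 4 (8 of 24), 24.4% in the centromere-proximal segments (20 of 82) and 5.29% elsewhere (124 of 2342). In every region it lay below that of coding genes, which was 65.0% (52 of 80), 44.3% and 16.1%.

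Summits of the thresholded members leaned to the upstream side of the lncRNA TSS. They lay upstream in 74 of 122, and 24.3% of the 305 members with an upstream summit passed (19.8 to 29.4), against 12.1% of the 398 with a summit at or downstream of the TSS (9.22 to 15.6). At coding promoters the share that passed fell with distance from the TSS, from 32.3% within 100 bp to 12.2% at 400 to 500 bp. Between those it was 31.3%, 20.9% and 15.4%. At lncRNA promoters it was 20.6% within 100 bp, 15.9%, 16.7% and 19.8% in the next 3 bins and 12.8% in the last, with overlapping intervals. Beyond 300 bp the lncRNA shares were thus not below those of coding promoters. The median distance from summit to TSS was 209.5 bp for thresholded members, 218 bp for other members and 93.5 bp for thresholded coding promoter peaks. The accuracy of the annotated lncRNA TSSs was not tested.

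**Figure D3:**
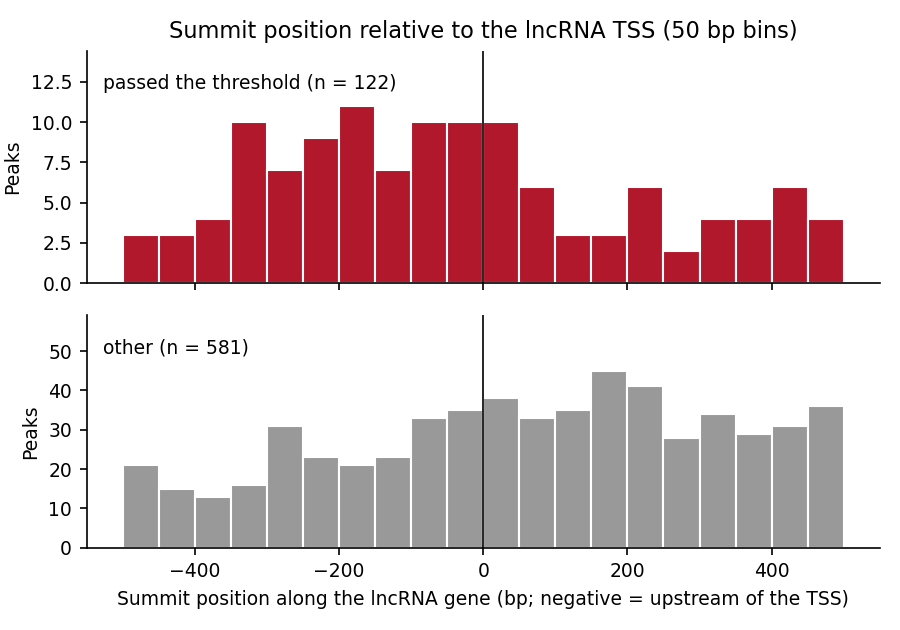
Position of the summit along the lncRNA gene in 50 bp bins (x axis in bp, negative values upstream of the TSS at 0) against the number of peaks, for the 122 members that passed (top) and the 581 others (bottom). Of the members that passed 74 lay upstream, and the others lay mostly downstream.

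The summits of thresholded members were poor in G and C. The median GC content within 100 bp of the summit was 35.8% (quartiles 32.3 and 40.3) for thresholded members and 45.8% (39.3 and 50.7) for the others. Coding promoters differed in the same direction, with 36.3% against 43.8%. Neither group rule used sequence, but the amplification and mapping of fragments can depend on base composition, and their part in this difference was not tested. Genes of thresholded members had a median length of 877 bp, those of the others 815 bp, and 48.4% against 58.0% had a single exon.

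DRE and BEAF-32 words had higher shares at thresholded lncRNA promoters than in their flanks and lower shares than at thresholded coding promoters, although the intervals of lncRNA and coding promoters overlapped for both. A DRE lay within 100 bp of the summit in 6 of 122 thresholded members (4.92%, 2.27 to 10.3), in 1.23% of windows centred 500 bp to either side and in 0.688% of other members. At thresholded coding promoters it was 10.8% (9.43 to 12.3), at thresholded peaks far from any TSS 1.92% and over all 30000 peaks 1.92%. The genes were lncRNA:CR44209, lncRNA:CR46475, asRNA:CR45928, lncRNA:CR46483, asRNA:CR45124 and lncRNA:CR46252. All 4 without a coding TSS within 500 bp lay on chromosome 4 (CR45124) or in centromere-proximal segments (CR46475, CR46483 and CR46252). The part of region in the DRE share was not tested. The palindromic DRE carries CGATA on both of its strands, so each DRE also counted as a BEAF-32 pair, defined as 2 copies of CGATA at most 30 bp apart on either strand.

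Such a pair was present in 14 of 122 thresholded members (11.5%, 6.96 to 18.3), in 2.46% of their flanks, in 2.41% of other members, in 19.2% of thresholded coding promoters and in 4.40% of all peaks. Without the DRE matches 8 of 122 remained (6.56%), of which the promoter shared by lncRNA:CR45187 and lost, printed above, has its 2 copies within a few bases. Members with a coding TSS within 500 bp held a pair in 7 of 30 cases (23.3%, 11.8 to 40.9) and lone members in 7 of 92 (7.61%, 3.73 to 14.9), with overlapping intervals. Of those 7 lone members, only lncRNA:CR44284 lay outside chromosome 4 and the centromere-proximal segments. Motif 1, GGTCACAC, was found in 1 thresholded member, lncRNA:CR44209 (0.820%), beside 6.80% of thresholded coding promoters and 1.46% of all peaks.

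TATA words stood at similar shares at lncRNA and coding promoters that passed, with overlapping intervals. TATAAA lay near 47 of 122 thresholded summits (38.5%, 30.4 to 47.4), in 24.6% of their flanks, 19.3% of other members, 33.7% of thresholded coding promoters, 30.4% of thresholded peaks far from a TSS and 19.2% of all peaks. Since the thresholded windows were also the richer in A and T, and a word of A and T alone is more frequent in such sequence, a match is a description of the letters and not of a working TATA box. GAGAGAG stood at 5.74% in thresholded members (2.81 to 11.4) and 5.68% in the others, but at 12.3% of the top-ranked members in the list of replicate 1 alone. Ohler motif 5, CAGCTG, stood at 4.10% (1.76 to 9.24) against 7.23% in the others, which lies inside that interval, and at 7.69% in the list of replicate 1 alone. It was at 12.2% at thresholded coding promoters and 10.4% over all peaks.

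CACTGAGA was the 8-base word whose share at thresholded peaks over 500 bp from any TSS exceeded that in their flanks by the most, and it was counted in the members after that choice. It lay in 5.38% of those far peaks and 0.587% of their flanks. Among thresholded members it was found in 6 of 122 (4.92%, 2.27 to 10.3), with 0.410% in their flanks, 0.861% in other members, 1.80% in thresholded coding promoters and 1.58% of all peaks. In the list of replicate 1 alone the share was 1.54%, about that of all peaks, and in the list of replicate 2 alone 5.04%. With windows of 50 bp on each side it was 1.64%. The members with the word were lncRNA:CR44676 (304.6), lncRNA:CR45325 (272.5), asRNA:CR45908 (226.9), lncRNA:CR45645 (152.7), the lower of 2 summits of lncRNA:CR44366 (138.6) and lncRNA:CR45552 (131.2), none of them among the 25 highest. No member held both this word and a DRE. Each was in only 6 of 122 thresholded members, so few that this lack of overlap carries no information. The same holds for the absence of the word from the 25 highest.

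**Figure D4:**
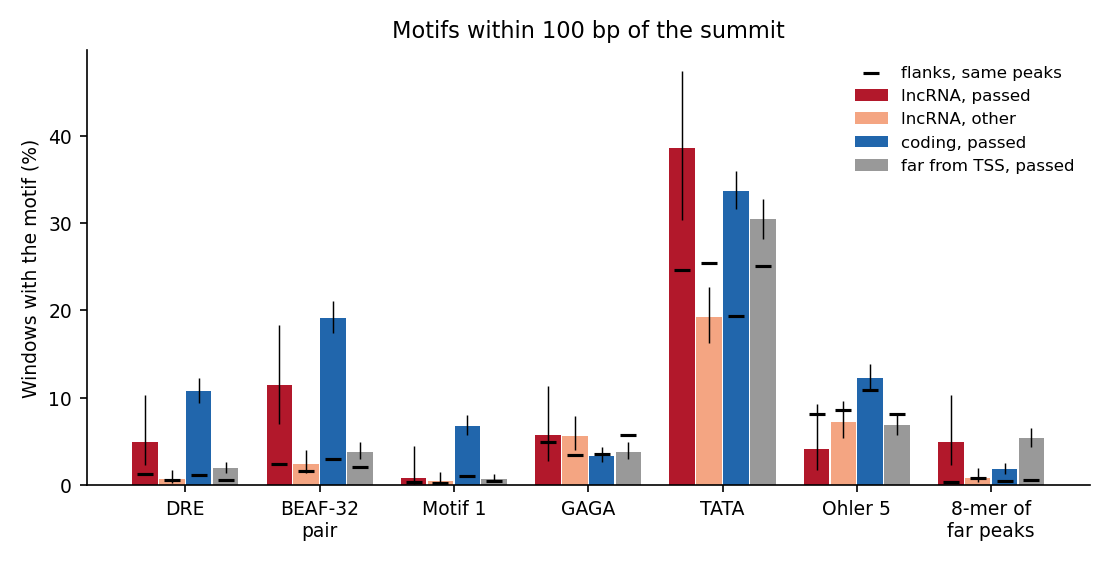
Percent of windows within 100 bp of the summit that held each motif, for thresholded lncRNA promoter peaks, other lncRNA promoter peaks, thresholded coding promoters and thresholded peaks far from any TSS. Bars carry 95% Wilson intervals and short black lines give the flanks of the same peaks; the last set is the word CACTGAGA, at 4.92% of thresholded members.

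Nearly every thresholded member was listed in both replicates, namely 120 of 122 (98.4%), as were 98.1% of thresholded coding promoters. The 2 exceptions, lncRNA:CR43644 beside the Notch target gene E(spl)m3-HLH (206.4) and lncRNA:CR45321 beside Camta (112.4), were listed in replicate 2 only. Of the other 581 members 229 were listed in both (39.4%), 99 in replicate 1 only, 208 in replicate 2 only and 45 in neither. Across peaks, the Spearman correlation of the replicate signals was 0.789 over the 120 thresholded members and 0.254 over the 229 others. These peaks come from the same 2 libraries and the thresholded set is a cut of the pooled signal, so the values describe the lists and carry no test. Passing did not require a high rank in both replicates. The thresholded peak of lncRNA:CR44868 was at rank 29860 in replicate 1 and at rank 1308 in replicate 2. Of the thresholded members, 90 ranked within the first 3535 of both replicate lists, and 3 of the others did. Replicate summits lay at a median of 14.5 bp (replicate 1) and 10 bp (replicate 2) from the pooled summit for thresholded members, and at 34 and 19 bp for the others.

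**Figure D5:**
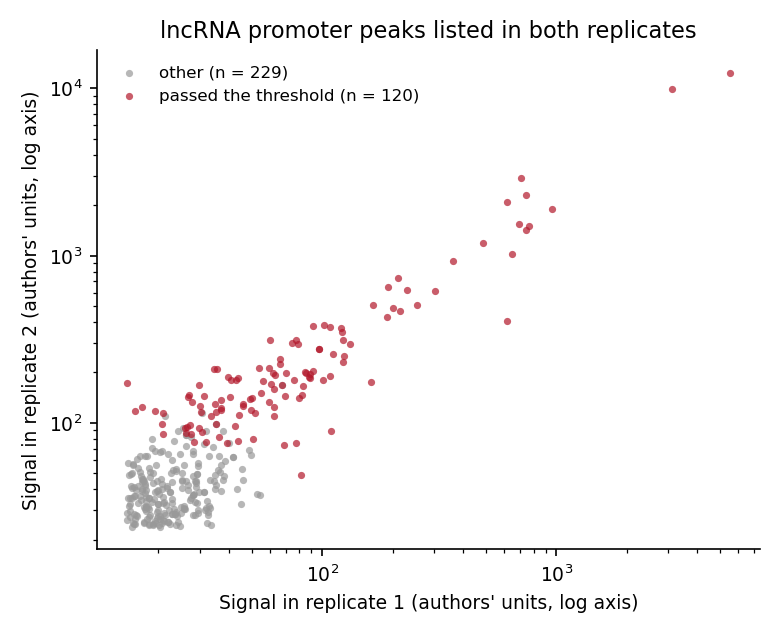
Signal of lncRNA promoter peaks in replicate 1 (x axis) against replicate 2 (y axis), in the authors' units on log axes, for the 120 thresholded members (red) and the 229 others (grey) listed in both. The thresholded members rise together, and the others form a cloud at low signal.

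Of the 6 peaks nearest to the 500 bp limit of the rule, 5 were low and 1 was high. The last members inside were lncRNA:CR45949 at 500 bp (signal 38.3), lncRNA:CR44059 at 498 bp (37.3) and lncRNA:CR44343 at 496 bp (51.5). Just outside were lncRNA:CR43704 at 502 bp (52.4), lncRNA:CR43247 at 505 bp (51.0) and a summit of lncRNA:CR44619 on X at 505 bp, which had 818.5 and was thresholded. A second CR44619 summit, 463 bp upstream of the TSS and inside the rule, had 815.5.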

How the data were processed

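Per the labels, the authors deposited dm6 peak lists of replicate 1, of replicate 2, of the pooled replicates, and a set cut by reproducibility between replicates (IDR). Neither aligner nor caller, nor the cut-off of that step, is given in the sources used here. Peaks were ranked and compared within a list by the deposited signal column, which comes without a scale. Summits came from the deposited summit offset column. TSSs were the 5′ ends of the transcripts of Ensembl release 115, transposable elements left out. Centromere-proximal segments were 2L beyond 22 Mb, 2R below 6 Mb, 3L beyond 23 Mb, 3R below 4.5 Mb and X beyond 22.5 Mb.

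Shares carry 95% Wilson intervals, which cover counting error only. No test was made, since the 2 replicates form 1 group. A replicate peak counted as shared when it overlapped the pooled interval by at least 1 bp. Motifs were searched on both strands within 100 bp of each summit and in windows centred 500 bp to either side. Genes are named by rule: the 25 highest thresholded members, the named lncRNAs, the 3 peaks on each side of the 500 bp limit, and the 5 highest of each class; other members were chosen for their known roles after their values were seen. The members and lists were chosen with earlier results of these data known. Orientation classes, GC content and CACTGAGA were added after the data had been seen. Scripts (Python 3.11.15, pandas 2.3.3, numpy 2.4.6, scipy 1.17.1, matplotlib 3.10.9) were checked on simulated data. The alternatives tried were other promoter distances, 1 TSS per gene, the RefSeq annotation, each replicate's own list, only the highest peaks, and other windows and overlaps.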

Additional observations from a re-analysis of the deposited data

How the results depend on the processing

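No paired analysis was possible because the 2 replicates form 1 group. A promoter distance of 200 bp gave 326 members, 60 of them thresholded with a median signal of 284.1, 2.90% of lncRNA genes with a thresholded summit and 64.7% of divergent members passing. A distance of 1000 bp gave 1185 members, of which 14.6% passed, 9.89% of lncRNA genes and 33.9% of divergent members. Without chromosome 4 and the centromere-proximal segments the gene share was 5.29%. With only the highest peaks of the thresholded set kept (1767), 74 members were thresholded, 10.5% passed, the median signal was 320.4, the gene share 3.80% and the divergent share 30.9%. With motif windows of 50 bp the BEAF-32 pair was at 6.56%, Motif 1 at 0%, GAGA at 1.64% and TATA at 20.5%; with 250 bp GAGA was at 14.8%, TATA at 59.0% and Ohler motif 5 at 14.8%. Listing in both replicates was 77.0% at an overlap of 50% and 88.5% with summits within 100 bp; it cannot be computed from 1 replicate.

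Replacing the pooled list by that of a single replicate gave median signals of 61.1 to 180.3, each on its own scale. The share of thresholded members with a coding TSS was 16.2% to 22.7%, GAGA 5.04% to 12.3% and TATA 28.5% to 36.1%. Divergent members passed in 30.2% (replicate 1 list) and 41.4% (replicate 2 list), beside 17.2% and 6.82% of same-strand or convergent and 18.6% and 14.6% of lone members, and CACTGAGA stood at 1.54% to 5.04%. The median GC content of thresholded members ran from 34.2% to 40.2% over the settings and that of other members from 44.3% to 46.5%. RefSeq TSSs gave 704 members and 122 thresholded. The cause of these changes was not tested. Of the values compared, 55 main and 30 further ones stayed within the counting interval or within 1.5 times the main count, and 30 main and 16 further ones moved beyond it. The unknown depth and the unstated signal scale limit what a low peak can show.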

Other observations

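Peaks in annotated transposable elements formed a small further group. Of 8 lncRNA promoter peaks with the summit in such an element, 5 passed the threshold, at lncRNA:CR46488, asRNA:CR45124, lncRNA:flam and at 2 summits of lncRNA:CR43256, with signals from 117.5 to 330.1. The member share was 62.5% (30.6 to 86.3). Of the 5, only the lncRNA:flam summit lay outside chromosome 4 and the centromere-proximal segments, and the part of region in this share was not tested. Of 25 coding promoter peaks in transposable elements 7 passed (28.0%, 14.3 to 47.6), and the intervals of lncRNA and coding promoters overlapped. How reads from repeated sequence were placed is unknown, and its part in these shares was not tested.

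Peak widths also differed between the members that passed and the others. The most common width was 330 bp, and 56 of the 122 thresholded members had another width, against 1 of the 581 others. In 8 thresholded members the interval was shared with another thresholded peak, so those summits are not independent intervals.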
